A study of Rattus norvegicus with 4 samples.

Results

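The RNA of 46 proteasome genes was compared between neonatal rat cardiomyocytes infected with an atrogin-1 adenovirus (Ad-atrogin-1) and with a control adenovirus (Ad-GFP). The 95% interval of the change lay within 2-fold for 45 of them, and 0 passed the test, which does not show that their levels were the same. The genes were chosen by name, as all symbols of the array's probe-gene table that start with Psma to Psmg and a number, plus Pomp and Adrm1. The table held 52 such symbols, of which 48 had at least 1 probe set that names no other gene, out of 14217 genes with such a probe set on the array. Of these 48 genes, 46 encode subunits, activators, an inhibitor or assembly factors of the proteasome (60 probe sets), and 2 (Psmc3ip and Psme3ip1) match by name only. The other 4 symbols (Psme3, Psmb6, Psma3l and Psmb6l1) shared their probe sets with other genes, so Psme3 and Psmb6 have no value of their own here.

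The proteasome is the protease that destroys proteins marked with ubiquitin chains in the cytosol and nucleus. Its 20S core is a barrel of alpha and beta rings with the active sites inside, its 19S cap binds ubiquitin chains and threads the unfolded substrate into the barrel, and further factors open, block or assemble it. Atrogin-1, the product of Fbxo32, is the substrate-binding F-box subunit of a muscle ubiquitin ligase and acts upstream of the proteasome. In muscle, the ubiquitin-proteasome pathway is known for breaking down contractile proteins during atrophy, and in the heart it also clears damaged proteins.

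Ad-atrogin-1 (2 arrays) carried atrogin-1 together with green fluorescent protein (GFP), and Ad-GFP (2 arrays) carried GFP alone, so both groups carried an adenovirus and GFP. All cells were primary cardiomyocytes of Sprague-Dawley rats 1 to 2 days old, and RNA was taken after 24 hours of infection without serum. Within a group the arrays are labelled as biological replicates, but the number of experiments in the study's methods is not the number of arrays. The p-values rest on the spread of these arrays within their groups, moderated by a spread pooled over all probe sets. Whether this is a spread between experiments is not known. The atrogin-1 gene was delivered by a virus, and the promoter that drove it was not given in the sources used here. The comparison asks which transcripts respond to added atrogin-1.

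Fbxo32 had log2 signals of 13.55 and 13.47 in Ad-atrogin-1 cells, against 5.24 and 5.04 in Ad-GFP cells. It rose (log2 fold change 8.37, SE 0.13, 331-fold, adjusted p = 3.51e-05, limma). How much of this signal came from viral and how much from endogenous transcripts was not tested. The fold is not an exact size, since the Ad-GFP signals lay under the array medians and the Ad-atrogin-1 signals near the highest signal of the arrays (13.90 to 13.99). Values are log2 signals per probe set, with array medians between 5.51 and 5.52 and upper quartiles between 7.27 and 7.32. Calls needed 2-fold or more and an adjusted p under 0.05, and 65 of 14217 genes (0.457%) were called higher and 8 (0.0563%) lower. All 10 cardiomyocyte markers were measured, with 0 called, a median log2 fold change of 0.36 and mean log2 signals over the list of 11.55 and 11.13 in Ad-atrogin-1 cells against 11.0 and 11.21 in Ad-GFP cells. Markers of fibroblasts, smooth muscle, endothelium, leukocytes and red blood cells had median log2 fold changes between −0.06 and 0.22, and none was called. The largest single change among them was that of the smooth muscle marker Rgs5 (0.98, SE 0.18, adjusted p = 0.102, limma). The part of cell makeup in the values of the proteasome genes was not tested. In RNA of whole cultures, fewer cells of a type and less RNA per cell cannot be told apart.

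RefSeq promoters (rat build GRCr8, 250 bases before to 50 after the start site) were matched to 42 of the 46 genes, all but Psma7, Psmd12, Psmd14 and Psmd6. The 3 shown are those of Psmg3, an assembly factor with the most positive log2 fold change of the 46 genes, of Psmb8, an immunoproteasome subunit with the most negative, and of Psmb5, the constitutive subunit whose place Psmb8 takes, which was at 0.00. They lie at chr12:19923038-19923337 on the plus strand, chr20:4656982-4657281 on the minus strand and chr15:32047330-32047629 on the minus strand, and each is written 5′ to 3′ along its gene. Capitals mark matches, on either strand, to 3 motifs: the antioxidant response element TGACNNNGC, read by Nfe2l1 and Nfe2l2, which are activators of proteasome genes, the CCAAT box CCAAT, read by NF-Y, and GAAANNGAA, part of the repeat read by interferon regulatory factors. No capitals overlap between motifs in these sequences.
Psmg3: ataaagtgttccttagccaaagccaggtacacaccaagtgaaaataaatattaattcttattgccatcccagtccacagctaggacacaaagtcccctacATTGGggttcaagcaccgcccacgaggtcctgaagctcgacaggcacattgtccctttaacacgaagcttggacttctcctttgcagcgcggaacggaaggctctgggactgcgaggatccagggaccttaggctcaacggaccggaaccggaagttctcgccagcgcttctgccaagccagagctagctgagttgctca
Psmb8: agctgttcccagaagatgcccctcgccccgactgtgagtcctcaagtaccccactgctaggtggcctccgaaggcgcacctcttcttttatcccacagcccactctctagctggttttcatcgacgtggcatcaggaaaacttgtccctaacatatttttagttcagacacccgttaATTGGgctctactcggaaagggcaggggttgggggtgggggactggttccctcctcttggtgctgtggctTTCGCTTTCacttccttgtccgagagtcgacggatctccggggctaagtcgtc
Psmb5: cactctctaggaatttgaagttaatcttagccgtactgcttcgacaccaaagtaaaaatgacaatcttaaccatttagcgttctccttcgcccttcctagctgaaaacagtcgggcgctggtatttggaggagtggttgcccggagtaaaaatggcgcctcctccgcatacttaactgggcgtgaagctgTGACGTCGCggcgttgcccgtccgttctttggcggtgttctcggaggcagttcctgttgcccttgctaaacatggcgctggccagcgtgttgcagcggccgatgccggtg
The Psmg3 promoter holds a CCAAT box on the opposite strand, the Psmb8 promoter a CCAAT box and an interferon motif, both on the opposite strand, and the Psmb5 promoter an antioxidant response element. Among the 42 matched promoters, the antioxidant response element was found in 8 (against 12.1% of all 33469 rat promoters in the table), the CCAAT box in 21 (against 37.5%) and the interferon motif in 10 (against 9.71%). These matches describe letters in a window and are no evidence that a factor binds there.

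Across the 46 genes, 0 were called higher and 0 lower, and 0 had an adjusted p under 0.05 in either direction with no fold threshold, where 0.471% of all genes passed higher and 0.0563% lower (limma). The smallest adjusted p was 0.2, for Psmg3. At an unadjusted p under 0.05 there were 3 genes higher (Psmg3, Psmd4 and Psmg2), or 6.52% of the 46 against 6.83% of all genes, and 2 lower (Psmd8 and Psmb8), or 4.35% against 6.52%. Both shares were below those of the whole array, so the count of 5 genes is no result about the proteasome. An equal-variance test, run as the methods' t-test, also called 0 genes, with 3 higher and 1 lower at an unadjusted p under 0.05.

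Log2 fold changes ran from −0.59 (Psmb8, 1.5-fold lower) to 0.52 (Psmg3, 1.44-fold higher), with standard errors between 0.11 and 0.22. The median size of the log2 fold change was 0.11, against 0.141 over all genes. The 95% interval of the change lay within 2-fold in both directions for 45 of the 46 genes (97.8%, against 92.6% of all genes), and the exception was Psmb8, whose interval reached −1.08. All 46 genes had mean log2 signals above the upper quartile of every array (7.72 to 11.49), so none was dim, and signals of different probe sets were not set against each other. The plot of the 46 log2 fold changes shows how narrowly they lie around 0.

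**Figure D1:**
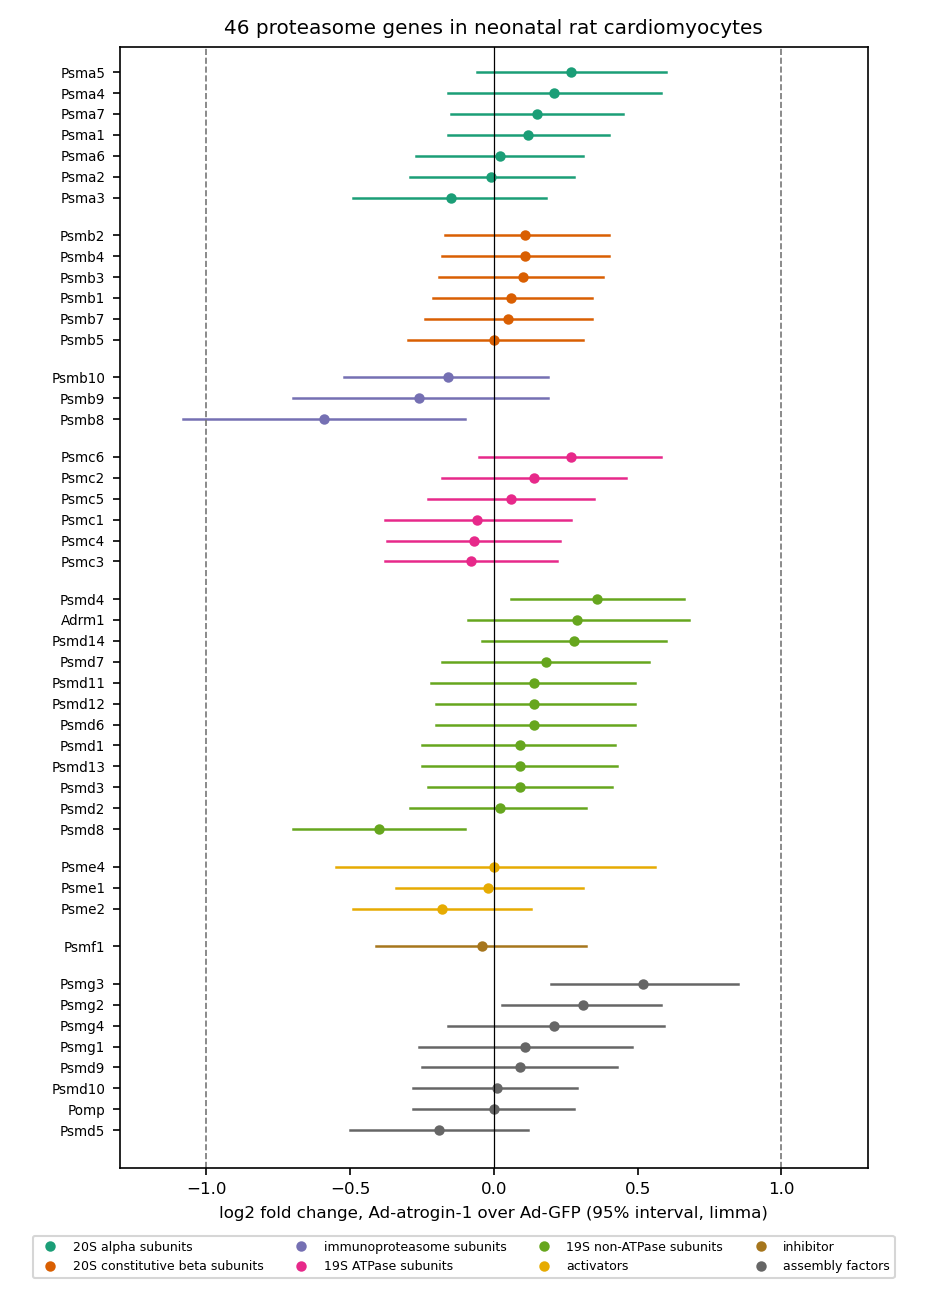
Log2 fold change between Ad-atrogin-1 and Ad-GFP cells for each of the 46 proteasome genes (x axis, above 0 where Ad-atrogin-1 is higher), with its 95% interval from limma. Points are genes in order of size within their group, colours are groups, and dashed lines mark 2-fold. Every interval but that of Psmb8, which reaches −1.08, lies between the dashed lines.

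The direction was uneven but small: 33 genes had a positive log2 fold change and 13 a negative one, with a median of 0.09, against −0.003 over all genes, of which 49.3% were positive. Both Ad-atrogin-1 arrays were above both Ad-GFP arrays for 13 genes (28.3%, against 20.7% of all genes), and both were below for 4 genes (8.7%, against 22.3%). This split depended on how the arrays were scaled. After a further quantile normalization 25 of the 46 genes were positive, with a median of 0.041, and the arrays separated upward for 7 genes and downward for 11. Over the 4201 genes in the same range of signals, an extra comparison chosen after seeing the data, the median was 0.024 and the arrays separated upward for 27.1% and downward for 22.4%. After that normalization their median was −0.007, with 23.0% upward and 26.4% downward.

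The alpha subunits form the outer rings of the core and its gate. All 7 were measured, with a median log2 fold change of 0.12 (−0.15 to 0.27), 0 called, 5 positive and 2 negative. Psma5 had log2 signals of 10.61 and 10.76 in Ad-atrogin-1 cells, against 10.32 and 10.50 in Ad-GFP cells (log2 fold change 0.27, SE 0.13, adjusted p = 0.463, limma). Psma4 had 9.63 and 9.75 in Ad-atrogin-1 cells, against 9.64 and 9.32 in Ad-GFP cells (0.21, SE 0.15, adjusted p = 0.619, limma). The groups of arrays did not overlap for Psma5, Psma7 and Psma1, where 20.7% of all genes and 27.1% of those in the same signal range separated upward. For Psma4 only Ad-GFP replicate 2 stood below the other 3 arrays. Psma3 lay at the other end, with 8.36 and 8.44 in Ad-atrogin-1 cells against 8.67 and 8.44 in Ad-GFP cells (−0.15, SE 0.13), and Psma2 was level, with 10.61 and 10.58 in Ad-atrogin-1 cells against 10.65 and 10.55 in Ad-GFP cells (−0.01, SE 0.12). The log2 fold changes of Psma7 (0.15), Psma1 (0.12) and Psma6 (0.02) lay between these. A brighter probe set shared by Psma3 and Psma3l went the other way from that of Psma3 alone (0.20, SE 0.12). It had log2 signals of 11.50 and 11.60 in Ad-atrogin-1 cells against 11.37 and 11.32 in Ad-GFP cells, so the direction of Psma3 is not settled.

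The constitutive beta subunits form the inner rings and include the catalytic subunits Psmb5, Psmb6 and Psmb7. Of 7 genes, 6 were measured, and none was far from 0, with log2 fold changes between 0.00 and 0.11 (median 0.08) and 0 called. Psmb5, the chymotrypsin-like subunit, had log2 signals of 11.0 and 10.95 in Ad-atrogin-1 cells, against 11.05 and 10.89 in Ad-GFP cells (0.00, SE 0.12, 95% interval −0.30 to 0.31). Psmb7, the trypsin-like subunit, had 10.28 and 10.35 in Ad-atrogin-1 cells, against 10.31 and 10.22 in Ad-GFP cells (0.05, SE 0.12). For these catalytic subunits the arrays of both groups overlapped. Psmb2 had 10.65 and 10.75 in Ad-atrogin-1 cells against 10.58 and 10.59 in Ad-GFP cells, and Psmb4 had 11.27 and 11.33 against 11.24 and 11.15 in Ad-GFP cells, each with a log2 fold change of 0.11 (SE 0.12). Psmb2, Psmb4, Psmb3 (0.10) and Psmb1 (0.06) were the 4 genes whose Ad-atrogin-1 arrays both lay above the Ad-GFP arrays. Each had a log2 fold change under 1 standard error, and 20.7% of all genes and 27.1% of those in the same signal range separated upward. After a further quantile normalization the median of the 6 genes was 0.01.

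The immunoproteasome subunits Psmb8, Psmb9 and Psmb10 replace the constitutive catalytic subunits when cells are exposed to interferon gamma, and give peptides suited to antigen presentation. All 3 had negative log2 fold changes (median −0.26) and 0 were called. Psmb8 had log2 signals of 8.67 and 8.53 in Ad-atrogin-1 cells, against 8.92 and 9.45 in Ad-GFP cells (log2 fold change −0.59, SE 0.20, adjusted p = 0.297, limma). The groups did not overlap, and Ad-GFP replicate 2 lay farthest from the gene's mean over the arrays. Without that array the log2 fold change of Psmb8 was −0.32.

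Psmb9 had log2 signals of 8.99 and 8.54 in Ad-atrogin-1 cells, against 8.95 and 9.10 in Ad-GFP cells (−0.26, SE 0.18, adjusted p = 0.61, limma). Psmb10 had 8.48 and 8.20 in Ad-atrogin-1 cells, against 8.47 and 8.54 in Ad-GFP cells (−0.16, SE 0.14, adjusted p = 0.688, limma). For both genes the arrays overlapped, since Ad-atrogin-1 replicate 1 lay among the Ad-GFP arrays and only Ad-atrogin-1 replicate 2 was low. Relative to each gene's mean over the 4 arrays, the median of the 3 genes was 0.06 and −0.35 on the Ad-atrogin-1 arrays and 0.05 and 0.21 on the Ad-GFP arrays, and without Ad-atrogin-1 replicate 2 their median log2 fold change was −0.03. Set against the subunit that each replaces, Psmb8 differed from Psmb5 by −0.59 in log2 fold change and Psmb10 from Psmb7 by −0.21 (exact permutation test over the arrays, two-sided, p = 0.333 and 0.667, where 0.333 is the smallest p that 2 against 2 arrays allow). Of 7 leukocyte markers 6 were measured, with mean log2 signals over the list of 5.74 and 4.93 in Ad-atrogin-1 cells against 5.28 and 5.39 in Ad-GFP cells. Ptprc (4.47 to 4.76), Cd3e (4.21 to 4.55) and Csf1r (3.86 to 4.50) lay below the median signal of every array. The myeloid markers were brighter, with log2 signals of 7.40 and 5.58 in Ad-atrogin-1 cells against 6.35 and 6.77 in Ad-GFP cells for Cd14, of 6.95 and 5.86 in Ad-atrogin-1 cells against 6.32 and 6.17 in Ad-GFP cells for Lyz2, and of 6.62 and 5.08 in Ad-atrogin-1 cells against 6.03 and 6.15 in Ad-GFP cells for Cd68. These 3 markers were lowest on Ad-atrogin-1 replicate 2, as were the 3 immunoproteasome genes, and highest on Ad-atrogin-1 replicate 1. The dimmer markers had another order. Cd3e was lowest on Ad-atrogin-1 replicate 1 and highest on Ad-atrogin-1 replicate 2, and Ptprc and Csf1r were lowest on Ad-GFP arrays. The cardiomyocyte markers Actn2 (11.12), Tnnt2 (12.81), Nppa (13.35) and Mybpc3 (9.57) were also lowest on Ad-atrogin-1 replicate 2. So were the fibroblast markers Dcn (11.02) and Postn (10.06), while the other cardiomyocyte and fibroblast markers were not. Every cardiomyocyte marker was lower on Ad-atrogin-1 replicate 2 than on replicate 1. Of the fibroblast markers, Dcn, Pdgfra and Postn were lower there, and Col1a1, Col1a2 and Col3a1 were higher. Leukocytes' part in the values of the 3 immunoproteasome genes was not tested.

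**Figure D2:**
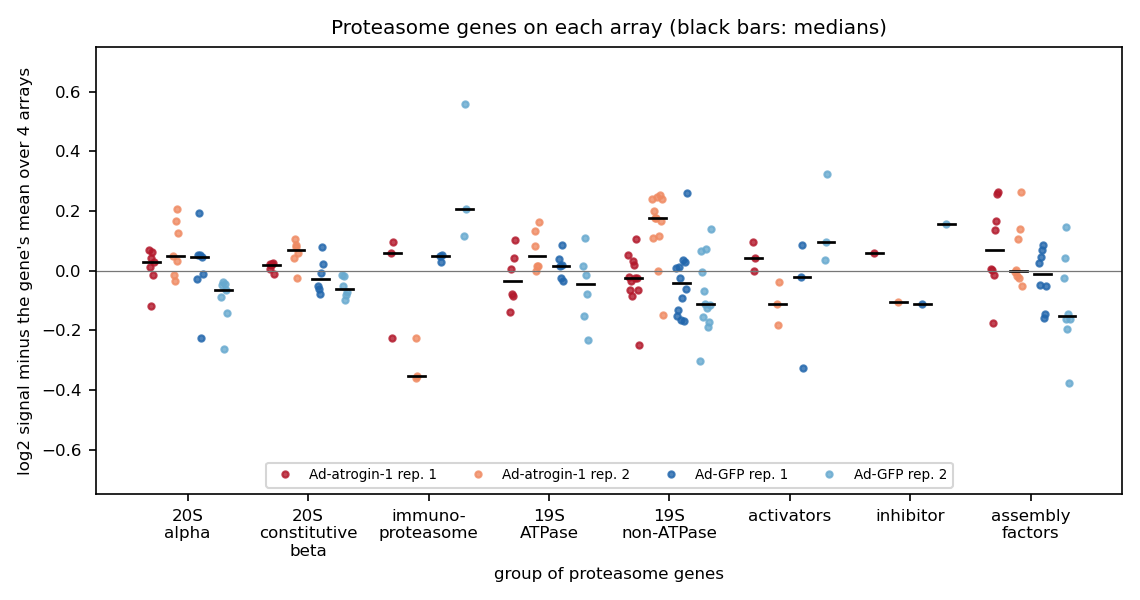
Log2 signal of each proteasome gene minus that gene's mean over the 4 arrays (y axis), by group of genes (x axis), with 1 colour per array and the Ad-atrogin-1 arrays left of the Ad-GFP arrays. Points are genes and black bars are medians. The 3 immunoproteasome genes are low on Ad-atrogin-1 replicate 2 (median −0.35) and high on Ad-GFP replicate 2 (median 0.21), while the 19S non-ATPase genes are high on Ad-atrogin-1 replicate 2 (median 0.18).

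The 19S cap sits on the ends of the core. Its 6 ATPases, Psmc1 to Psmc6, form the ring that unfolds substrates and opens the gate, and their median log2 fold change was 0.00 (−0.08 to 0.27), with 3 positive, 3 negative and 0 called. Psmc6 had log2 signals of 9.95 and 10.01 in Ad-atrogin-1 cells, against 9.81 and 9.61 in Ad-GFP cells (0.27, SE 0.13, adjusted p = 0.453, limma), and was the only ATPase gene whose groups did not overlap. Psmc2 had 11.39 and 11.51 in Ad-atrogin-1 cells, against 11.39 and 11.23 in Ad-GFP cells (0.14, SE 0.13). On the negative side, Psmc3 had 9.54 and 9.61 in Ad-atrogin-1 cells against 9.59 and 9.72 in Ad-GFP cells (−0.08, SE 0.12), and Psmc4 had 9.62 and 9.72 in Ad-atrogin-1 cells against 9.79 and 9.69 in Ad-GFP cells (−0.07, SE 0.12). Psmc5 (0.06) and Psmc1 (−0.06) lay within the same range, and the intervals of all 6 genes include 0.

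The 12 non-ATPase subunits of the cap that were chosen by name include ubiquitin receptors, the deubiquitinase Psmd14 and the scaffold of base and lid. Their median log2 fold change was 0.14, with 11 positive, 1 negative (Psmd8) and 0 called. Psmd4, a ubiquitin receptor, had log2 signals of 9.34 and 9.49 in Ad-atrogin-1 cells, against 9.06 and 9.04 in Ad-GFP cells (0.36, SE 0.12, 95% interval 0.06 to 0.66, adjusted p = 0.297, limma). Adrm1, another ubiquitin receptor, had 8.42 and 8.61 in Ad-atrogin-1 cells, against 8.37 and 8.07 in Ad-GFP cells (0.29, SE 0.16, adjusted p = 0.492, limma). The arrays of the groups did not overlap for Psmd4 or Adrm1, where 20.7% of all genes and 27.1% of those in the same signal range separated upward. Without Ad-GFP replicate 2 the log2 fold change of Adrm1 was 0.14, while that of Psmd4 stayed between 0.28 and 0.43 with any 1 array left out. Psmd14, which cuts ubiquitin chains from substrates, had a log2 fold change of 0.28 (SE 0.13, adjusted p = 0.445, limma), also without overlap.

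Psmd8, a lid subunit, had log2 signals of 9.79 and 9.89 in Ad-atrogin-1 cells, against 10.30 and 10.18 in Ad-GFP cells (−0.40, SE 0.12, 95% interval −0.70 to −0.10, adjusted p = 0.259, limma). Both Ad-atrogin-1 arrays were below both Ad-GFP arrays, and leaving out any 1 array kept the value between −0.46 and −0.34. Of 104 rat RefSeq entries whose symbol matches the choice by name, 48 are pseudogenes, and 2 of these are named after Psmd8. Whether the probe set of Psmd8 or those of the other genes also bind RNA of pseudogenes was not tested. Psmd2, a scaffold subunit that docks substrate shuttles, was level, with 10.25 and 10.23 in Ad-atrogin-1 cells against 10.14 and 10.31 in Ad-GFP cells (0.02, SE 0.12). The other scaffold subunit Psmd1 (0.09) and the lid subunits Psmd3 (0.09), Psmd6 (0.14), Psmd7 (0.18), Psmd11 (0.14), Psmd12 (0.14) and Psmd13 (0.09) had small positive log2 fold changes with overlapping arrays. Of the 12 genes, 11 were higher on Ad-atrogin-1 replicate 2 than on replicate 1, and without Ad-atrogin-1 replicate 2 the median of the 12 was 0.03. Over all 46 genes this held for 29, against 48.9% of all genes on the array.

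The activators bind the core in place of the 19S cap. Psme1 and Psme2 form the PA28 ring that interferon gamma induces, Psme3 forms a nuclear ring of the same family, and Psme4 (PA200) is a large nuclear activator. Of these 4 genes 3 were measured and 0 were called. Psme2 had log2 signals of 9.72 and 9.54 in Ad-atrogin-1 cells, against 9.80 and 9.81 in Ad-GFP cells (−0.18, SE 0.12, adjusted p = 0.6, limma), without overlap. Psme1 had 11.59 and 11.38 in Ad-atrogin-1 cells, against 11.47 and 11.53 in Ad-GFP cells (−0.02, SE 0.13), with overlap, and the difference between these partners was not tested.

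Psme4 had log2 signals of 10.23 and 10.15 in Ad-atrogin-1 cells, against 9.86 and 10.51 in Ad-GFP cells. Its log2 fold change was 0.00 with the widest standard error of the 46 genes (0.22), because the Ad-GFP arrays lay on either side of the Ad-atrogin-1 arrays. Its other probe sets had the same order of the Ad-GFP arrays, with 9.88 and 10.50 at the next brightest and 8.45 and 8.95 at the dimmest. Psmf1, also called PI31, is known as an inhibitor of the core in vitro. It had 8.61 and 8.45 in Ad-atrogin-1 cells, against 8.44 and 8.71 in Ad-GFP cells (−0.04, SE 0.15), with overlap.

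Assembly factors build the core and the base of the cap and are not kept in the mature proteasome, and Pomp is digested by the new proteasome. All 8 were measured, with a median log2 fold change of 0.10 (−0.19 to 0.52), 7 at or above 0 and 0 called. Psmg3, a chaperone of the alpha ring that works as a pair with Psmg4, had log2 signals of 8.08 and 8.08 in Ad-atrogin-1 cells, against 7.68 and 7.44 in Ad-GFP cells (0.52, SE 0.13, 95% interval 0.20 to 0.85, adjusted p = 0.2, limma). The groups were apart by more than the distance between the Ad-GFP arrays, and leaving out any 1 array gave 0.41 to 0.64. Its partner Psmg4 had 8.61 and 8.29 in Ad-atrogin-1 cells, against 8.29 and 8.18 in Ad-GFP cells (0.21, SE 0.15, adjusted p = 0.61, limma).

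Psmg2, which pairs with Psmg1 as another alpha-ring chaperone, had log2 signals of 8.56 and 8.53 in Ad-atrogin-1 cells, against 8.23 and 8.25 in Ad-GFP cells (0.31, SE 0.11, 95% interval 0.03 to 0.58, adjusted p = 0.335, limma). Its arrays lay close together within each group, and the groups did not overlap. Psmg1 had a log2 fold change of 0.11 (SE 0.15) with overlap. Pomp, the maturation factor of the core, was level, with 10.70 and 10.69 in Ad-atrogin-1 cells against 10.72 and 10.67 in Ad-GFP cells (0.00, SE 0.11). Of the chaperones of the ATPase ring, Psmd5 had 9.23 and 9.38 in Ad-atrogin-1 cells against 9.45 and 9.55 in Ad-GFP cells (−0.19, SE 0.12, adjusted p = 0.579, limma), without overlap, while Psmd9 (0.09) and Psmd10 (0.01) overlapped.

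**Figure D3:**
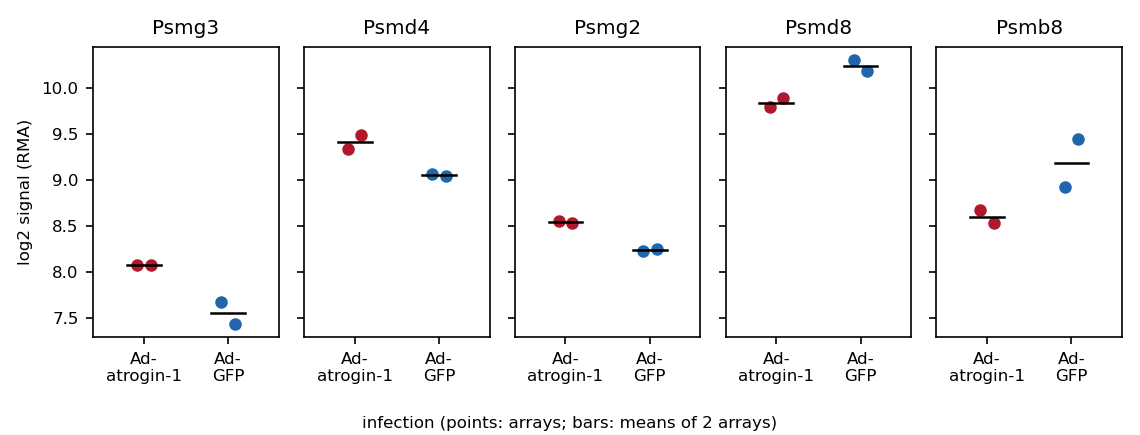
Log2 signal (y axis) of the 5 proteasome genes with an unadjusted limma p under 0.05, on the 2 Ad-atrogin-1 and 2 Ad-GFP arrays (x axis). Points are arrays and bars are means of 2 arrays. In each gene the groups do not overlap, and the Ad-GFP arrays of Psmb8 (8.92 and 9.45) lie farthest apart. The genes were picked by their p, and their adjusted p lay between 0.2 and 0.335.

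More than 1 probe set was present for 9 of the 46 genes, which gives another reading of the same RNA on the same arrays and no further replicate. The 3 probe sets of Psmd14 gave log2 fold changes of 0.28, 0.29 and 0.14, and the 2 of Psmd7 gave 0.18 and 0.12 (SE 0.13 to 0.14 each). Those of Psmc6 gave 0.27, 0.10 and 0.03, and those of Psme4 gave 0.00, −0.06 and 0.22. Probe sets of opposite sign were found for Psmb5, Psmd11, Psmd9, Psme1 and Psme4, and in none of these did any probe set pass an unadjusted p under 0.05. The farthest from 0 among them was the dimmest probe set of Psmd11, with log2 signals of 3.13 and 3.02 in Ad-atrogin-1 cells against 3.35 and 3.34 in Ad-GFP cells (−0.27, SE 0.12). Its signals lay under the lower quartile of the arrays (3.88 to 3.94), and 0 of the 60 probe sets were called with an adjustment that spanned the 31042 tested.

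**Figure D4:**
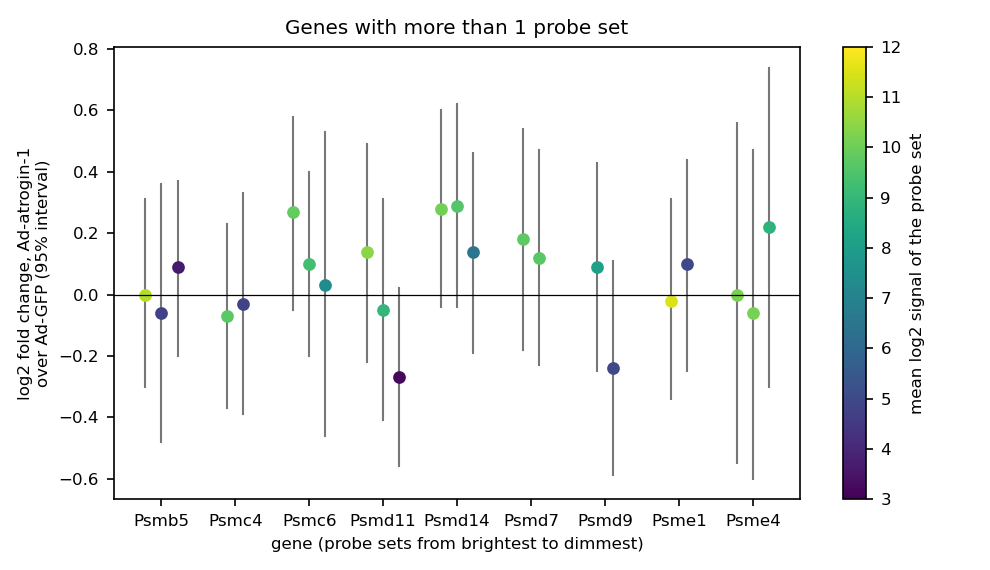
Log2 fold change between Ad-atrogin-1 and Ad-GFP cells, with its 95% interval (y axis, above 0 where Ad-atrogin-1 is higher), for each probe set of the 9 genes with more than 1 (x axis). Colour is the mean log2 signal of the probe set over the 4 arrays, and probe sets run from bright to dim. All intervals include 0, and the lowest value is that of the dimmest probe set of Psmd11 (−0.27).

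Genes that work next to the proteasome were taken from lists and described by the same counts. Of 14 proteins that associate with it or carry substrates to it, 12 were measured, with 0 called, a median of 0.05 and 4 (Zfand2a, Ecpas, Rad23b and Txnl1) separated upward, where 20.7% of all genes and 27.1% of those in the signal range of the proteasome genes did so. Zfand2a, an arsenite-inducible protein that binds the 19S cap, had log2 signals of 9.72 and 10.15 in Ad-atrogin-1 cells, against 8.66 and 8.86 in Ad-GFP cells. Its log2 fold change of 1.18 (SE 0.18, adjusted p = 0.0715, limma) was beyond 2-fold but missed the threshold on p, and the next value in the list was 0.21 (Ecpas, a scaffold that binds proteasomes). The deubiquitinase Usp14 (0.04), the cap-bound deubiquitinase Uchl5 (−0.09) and the shuttles Rad23b (0.05) and Ubqln1 (0.13) had log2 fold changes near 0.

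The p97 segregase pulls ubiquitylated proteins out of membranes and complexes and hands them to the proteasome. For all 4 of its genes both Ad-atrogin-1 arrays lay above both Ad-GFP arrays, with a median log2 fold change of 0.24 (0.10 to 0.40) and 0 called. Over all genes 20.7% separated upward, and 27.1% of those in the signal range of the proteasome genes. Nothing particular to these 4 genes is read from the count. Vcp, the ATPase p97 itself, had log2 signals of 11.51 and 11.72 in Ad-atrogin-1 cells, against 11.21 and 11.23 in Ad-GFP cells (0.40, SE 0.13, adjusted p = 0.276, limma). Its cofactors Nsfl1c (0.29), Ufd1 (0.20) and Nploc4 (0.10) had smaller values. Of 5 genes that supply ubiquitin only Uba1, the main ubiquitin-activating enzyme, was measured (−0.22, SE 0.13, adjusted p = 0.53, limma).

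Transcription factors of proteasome genes and their processing enzymes had a median log2 fold change of −0.06, with 8 of 9 genes measured and 0 called. Nfe2l1, which induces subunit genes when proteasome activity is low, had a log2 fold change of −0.10 (SE 0.13) and its relative Nfe2l2 one of −0.03 (SE 0.12). The lowest values were those of Ddi2, the protease that activates Nfe2l1 (−0.34, SE 0.16, adjusted p = 0.453, limma), and Maff (−0.32, SE 0.18). Both separated downward, as did 22.3% of all genes, and the signals of Ddi2 (4.87 to 5.46) lay under the array medians.

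Genes of class I antigen presentation, which interferons induce together with the immunoproteasome, had a median log2 fold change of −0.27, with 7 of 8 measured and 0 called. Tapbp, the peptide-loading chaperone tapasin, had log2 signals of 7.88 and 7.63 in Ad-atrogin-1 cells, against 8.16 and 8.32 in Ad-GFP cells (−0.48, SE 0.14, adjusted p = 0.247, limma). B2m, the light chain of class I molecules, had a log2 fold change of −0.28 (SE 0.12, adjusted p = 0.404, limma), and these 2 genes separated downward, as did 22.3% of all genes. In RefSeq, Psmb8 and Psmb9 lie on chromosome 20 beside the peptide transporter genes, in the order Tap2, Psmb8, Tap1 and Psmb9. Their log2 fold changes were −0.35 for Tap2, −0.59 for Psmb8, 0.08 for Tap1 and −0.26 for Psmb9, with overlapping 95% intervals, and differences between these neighbours were not tested. Averaged over the 7 genes, the log2 signals were 8.39 and 8.15 in Ad-atrogin-1 cells against 8.29 and 8.70 in Ad-GFP cells, again with the extremes on the arrays of replicate 2.

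**Figure D5:**
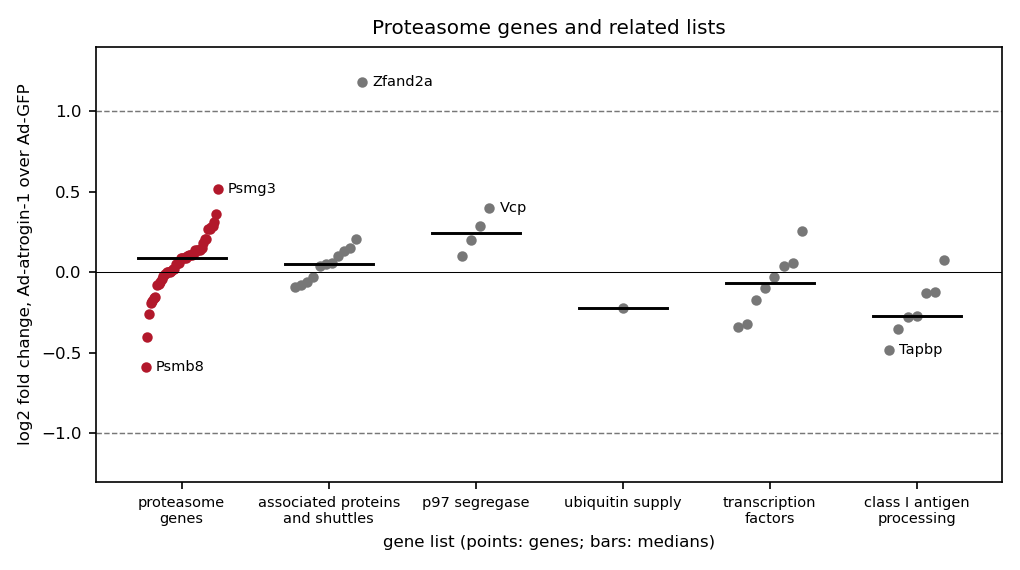
Log2 fold change between Ad-atrogin-1 and Ad-GFP cells (y axis, above 0 where Ad-atrogin-1 is higher) of the 46 proteasome genes and of related gene lists (x axis). Points are genes, bars are medians and dashed lines mark 2-fold. Zfand2a (1.18) is the only gene beyond a dashed line, and no gene shown was called.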

How the data were processed

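Gene expression was measured in 2 Ad-atrogin-1 and 2 Ad-GFP samples, 1 array each (Affymetrix rat expression array). The deposited log2 values had been made by the authors in GeneSpring GX by RMA, which corrects background, normalizes and summarizes probes over the arrays. They were used with no further scaling. Of 31099 probe sets, 57 controls were left out. A platform annotation table gave the genes of probe sets: 20826 named 1 gene, 436 several and 9780 none.

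In R 4.3.3, limma 3.58.1 (two-sided moderated test, no block) was fitted over all 31042 probe sets, which gave 2 residual and 3.65 prior degrees of freedom per probe set. The brightest probe set by mean signal stood for its gene, and p was adjusted by Benjamini-Hochberg over 14217 genes. Calls needed 2-fold or more and an adjusted p under 0.05, as the methods ask. SEs and 95% intervals are those of the moderated fit. Precision is limited by the number of arrays. The script was tested on simulated data.

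The members and gene lists were chosen with earlier results of these data known. By a fixed rule, values on every array are given for the 2 highest and 2 lowest log2 fold changes of each group of 4 or more genes, all genes of smaller groups, and genes with an unadjusted p under 0.05. Psmg4, Psmd14 and the genes of related lists were described outside this rule, after their values were seen. Alternatives were a further quantile normalization, median centring, a trended or robust prior, the upper 60% of probe sets by signal, averaged probe sets per gene, the replicate block, a 1.5-fold threshold, the methods' t-test and leaving out each array. Promoters came from RefSeq (GRCr8). The array's own genome build was not given in the sources used here, so no other coordinates are printed. Other experiments of the study were not analysed here.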

Additional observations from a re-analysis of the deposited data

How the results depend on the processing

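None of the 46 genes was called under any of the 13 alternatives, and the lowest adjusted p of a named gene was 0.183 (Psmg3, mean of probe sets). Of 27 named genes, 19 kept their direction in all alternatives. A further quantile normalization left 7 genes without overlap higher and 11 lower, with medians of 0.04 over all proteasome genes, 0.06 over alpha and 0.01 over constitutive beta subunits, and turned Pomp (−0.06), Psmb5 (−0.04), Psmb7 (−0.00), Psmd2 (−0.05) and Psme4 (−0.06). The mean of probe sets turned Psme1 (0.04), and the methods' t-test had 1 gene lower at an unadjusted p under 0.05. The cause of these shifts was not tested.

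With 1 array left out, whose group's lone array is assumed to vary like the others, 17 to 28 genes had no overlap higher and 7 to 11 lower, as fewer arrays allow. At an unadjusted p under 0.05 there were 1 to 2 genes higher and 1 lower, and intervals within 2-fold were 43 to 46. Medians ran from 0.03 to 0.09 over all proteasome genes, 0.05 to 0.15 over alpha subunits, −0.48 to −0.03 over immunoproteasome subunits, 0.03 to 0.24 over 19S non-ATPase subunits, −0.19 to 0.04 over activators and 0.01 to 0.23 over assembly factors. The lowest immunoproteasome value was that without Ad-atrogin-1 replicate 1 and the highest that without Ad-atrogin-1 replicate 2. Signs turned for Psma2 (−0.06 to 0.05), Psmb5 (−0.08 to 0.08), Psmd2 (−0.07 to 0.10), Psme1 (−0.12 to 0.09), Psme4 (−0.32 to 0.33), Psmf1 (−0.18 to 0.09) and Pomp (−0.03 to 0.03).

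Deviations of same-numbered arrays correlated at 0.0432 over all probe sets, so no shared deviation was seen. This cannot decide whether same-numbered samples came from the same culture or day. With the replicate block, 0 genes were called, and 2 were higher and 2 lower at an unadjusted p under 0.05.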

Other observations

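The 6 probe sets that the table pairs with several genes, among them a proteasome gene, were not attributed to a gene. Those shared by Psma3 and Psma3l (log2 fold change 0.20, SE 0.12) and by Psmb6 and Psmb6l1 (0.14, SE 0.12) separated the groups, with the Ad-atrogin-1 arrays on top. The 4 shared by Psme3, Aoc3 and G6pc1 gave −0.03, 0.23, −0.21 and −0.02. Of the genes that match by name only, Psmc3ip, a recombination cofactor, had log2 signals of 7.52 and 7.62 in Ad-atrogin-1 cells against 7.73 and 7.50 in Ad-GFP cells (−0.04, SE 0.14). Psme3ip1, which binds the nuclear activator Psme3, had 8.46 and 8.59 in Ad-atrogin-1 cells against 8.42 and 8.45 in Ad-GFP cells (0.09, SE 0.12).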
